A study of Mus musculus with 58 samples.

Results

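Forestomach RNA of mice given benz(a)anthracene (BaA) at 40 mg/kg-bw/day was compared with forestomach RNA of vehicle controls. The arrays were chosen by tissue and dose as the labels give them, which selects 9 of the 58 arrays analysed, 5 of the BaA group (D2, mice 11 to 15) and 4 of the control group (D0, mice 1 to 4). The forestomach of control mouse 5 was not analysed here. All animals were male MutaTMMouse, a transgenic strain with a bacterial lacZ reporter in which mutations can be scored, labelled as 10 weeks old. D2 mice received BaA in olive oil and D0 mice olive oil alone, by daily gavage on 28 days, and tissue was frozen 72 h after the final dose. RNA came from a random slice of each forestomach, so the share of each tissue layer in a sample was not controlled. On each two-colour Agilent array the RNA of 1 mouse carried Cy5, and a commercial pool of RNA from mouse cell lines, the same on every array, carried Cy3. A level below is the loess-normalised log2 ratio of Cy5 to Cy3, and a change is the mean of D2 minus the mean of D0 on that log2 scale.

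The rodent forestomach is a storage chamber lined by stratified squamous epithelium that keratinises, and it has no counterpart in the human stomach. It meets a gavaged compound first, and it is a known site of tumours after oral exposure to polycyclic aromatic hydrocarbons. BaA belongs to these compounds and is a ligand of the aryl hydrocarbon receptor (AhR). AhR is held in the cytoplasm in a complex with chaperones such as Hsp90 and p23, moves into the nucleus when it binds a ligand, pairs with Arnt and switches on genes such as Cyp1a1 and Cyp1b1. The enzymes made from these genes oxidise hydrocarbons to metabolites that can bind DNA, and damaged DNA in turn activates p53 and its target Cdkn1a.

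The slices were checked against markers of their tissue. Keratins of squamous epithelium were well above background on all 9 arrays. Krt4, of the upper layers, lay between 6.35 and 7.44 in D0 and between 6.36 and 7.39 in D2, and Krt14, of the basal layer, between 3.49 and 4.21 in D0 and between 3.68 and 4.16 in D2. Some slices also held RNA of the adjoining glandular stomach. The score of a list is the mean over its measured genes of the log2 ratio minus the gene's mean over all 19 forestomach arrays, and for 18 genes of the glandular stomach it was -2.37, 1.88, -2.23 and -2.45 in control mice 1, 2, 3 and 4. In D2 mice 11 to 15 it was -1.70, -2.24, -2.23, 2.37 and 1.97. Control mouse 2 and D2 mice 14 and 15 therefore stood apart from the other 6 arrays, and Atp4a, the acid pump of parietal cells, was well above background on 1 of 4 D0 arrays and 2 of 5 D2 arrays. Fat scores were 1.42, -1.17, 1.58 and 2.04 in D0 and 1.22, 1.55, -0.35, -0.82 and -0.98 in D2. They were lowest in control mouse 2 and D2 mice 14 and 15, while D2 mouse 13 was below 0 in both scores. In bulk RNA, fewer cells of a type and less RNA per cell cannot be told apart.

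The arrays lay on 3 slides, each with both groups. Slide 1 held D0 mouse 1 and D2 mice 11 and 12, slide 2 held D0 mice 3 and 4 and D2 mice 13 and 14, and slide 3 held D0 mouse 2 and D2 mouse 15. On slides 1 and 2, 52.4 to 58.2% of the spots passed the scanner's background test in Cy5, against 38.4 to 41.6% on slide 3. Over all tested probes, pairs of D0 arrays had r of 0.843 to 0.979 and pairs of D2 arrays 0.836 to 0.973, and 0 pairs of arrays were identical. Every D0 array lay in column 1 of its slide and every D2 array in column 3, in all 3 tissues, so BaA dose and array column cannot be told apart.

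**Figure D1:**
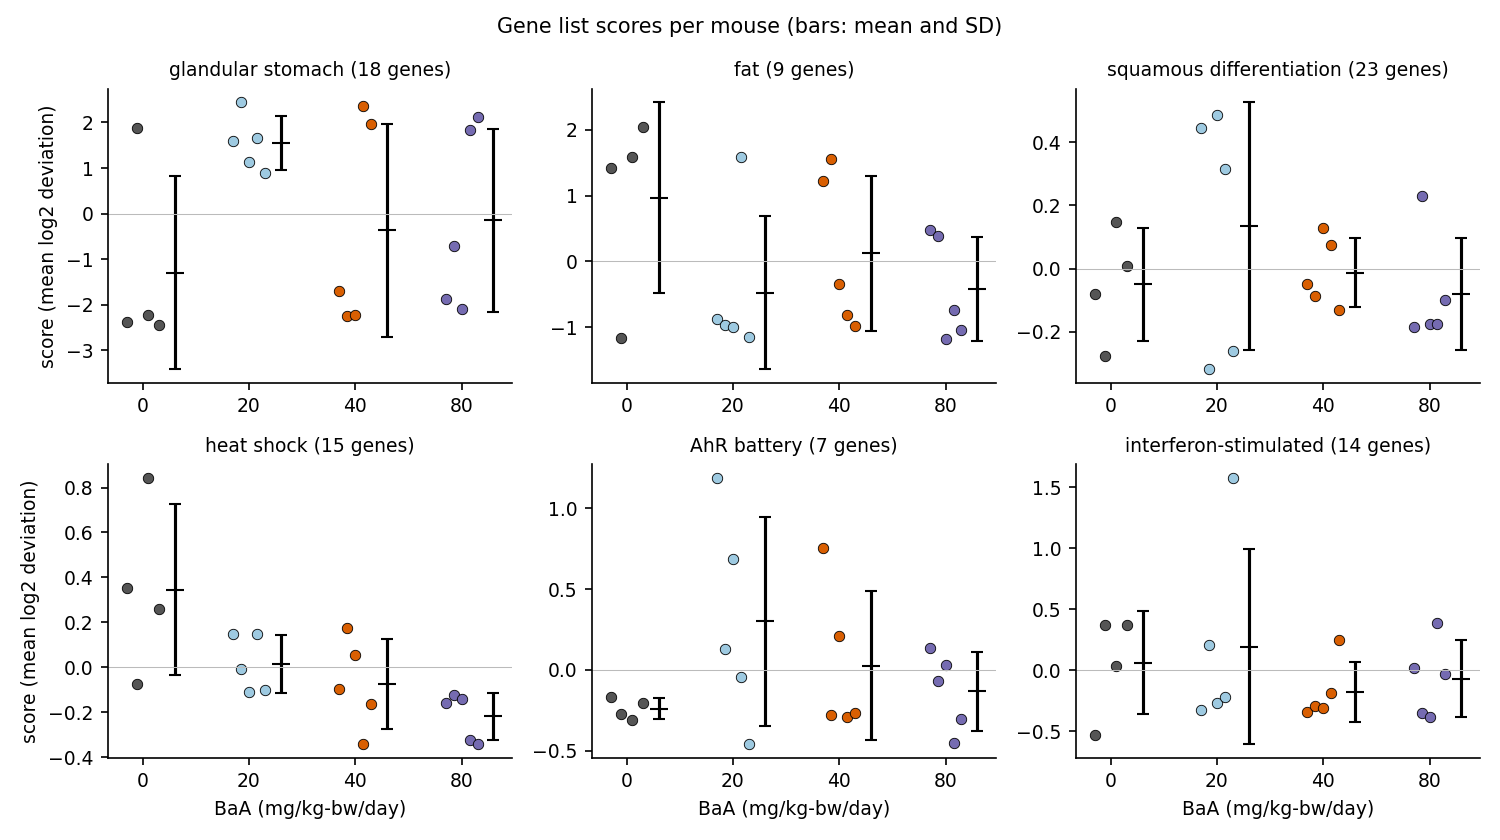
List scores of every forestomach array by BaA dose in mg/kg-bw/day (x axis), as the mean log2 deviation from each gene's forestomach mean (y axis), with 1 point per mouse and bars for mean and SD. Control mouse 2 and D2 mice 14 and 15 lie at 1.88, 2.37 and 1.97 in the glandular stomach panel while the other D0 and D2 mice lie at -1.70 or below, and squamous differentiation spans similar ranges at 0 and 40 mg/kg-bw/day.

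The change between D2 and D0 was small for nearly all probes. limma called 4 of 32318 tested probes, 0.0124%, at an adjusted p of at most 0.05 and a fold change of at least 1.5. Of these 2 were higher in D2 (0.00619% of the tested probes) and 2 lower (0.00619%). At an unadjusted p under 0.05 there were 1063 probes (3.29%), 516 higher (1.6%) and 547 lower (1.69%), where chance alone gives 1616. Pcp2, the only called probe with a gene symbol, and 1 probe of a noncoding interval on chromosome 7 rose. The probe of the accession XM_918536 and 1 probe of a noncoding interval on chromosome 1 fell. The median SE of a change was 0.129, and the median 95% interval, not adjusted for the number of probes, reached 0.27 to either side. The median change of all tested probes was -0.00105 with 49.7% of the changes above 0 and 50.3% below. Under median centring in place of loess that median moved to 0.13 and the share above 0 to 78%, and changes are given here relative to the loess fit.

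**Figure D2:**
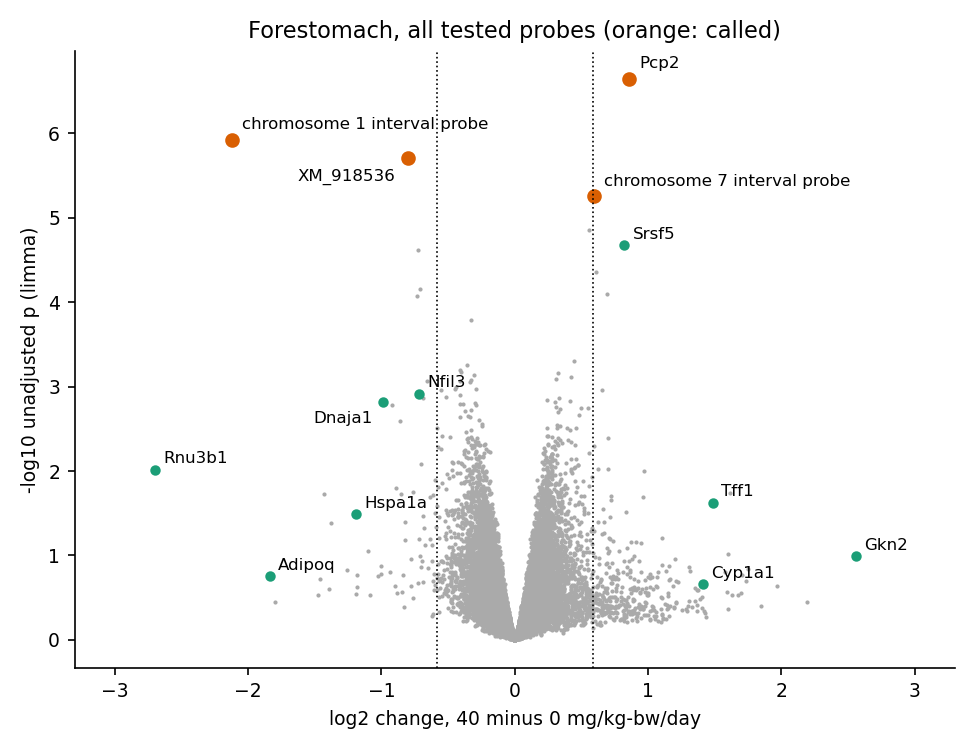
Change of each of the 32318 tested probes between 40 and 0 mg/kg-bw/day (x axis, log2) against -log10 of the unadjusted limma p (y axis), with dotted lines at a fold change of 1.5. The 4 called probes are orange and the green points are genes named in the text, among them Rnu3b1 at -2.70, Gkn2 at 2.56 and Cyp1a1 at 1.41 with low points on the y axis.

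Pcp2 had the smallest p of all tested probes. It encodes Purkinje cell protein 2, a modulator of G protein signalling best known from cerebellum and retina. Its level was 0.16, 0.27, 0.24 and 0.34 in D0 mice 1 to 4, and 1.01, 1.04, 1.26, 1.31 and 0.93 in D2 mice 11 to 15. All 5 D2 mice lay above all 4 controls, a separation that 0.631% of the tested probes had in this direction. The means were 0.25 ± 0.08 (SD, n = 4) and 1.11 ± 0.17 (SD, n = 5), and the change of 0.86 (SE 0.105, 1.81-fold, adjusted p = 0.00726) was present on each slide, at 0.87, 0.99 and 0.65 on slides 1, 2 and 3. The signal of the reference RNA at the same probe was also higher on D2 arrays, by 0.91 (adjusted p = 0.00155), and that of the forestomach RNA by 1.49. The same pool was hybridised to every array, so the Cy3 difference is not one between mice. Its part in the Pcp2 result was not tested. Pcp2 remained called without any 1 of the 9 mice (adjusted p of 0.00404 to 0.0399). It was not called with only the D0 and D2 arrays in the model (adjusted p = 0.278), with median centring (1) or with Agilent's processed signals (0.351). The call was also lost in a fit without all forestomach arrays rich in glandular stomach genes (0.101). That fit left out control mouse 2, D2 mice 14 and 15, every mouse at 20 mg/kg-bw/day, and mice 19 and 20 at 80 mg/kg-bw/day. Fewer arrays therefore set its spread.

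The chromosome 1 probe lies in the interval chr1:63264155-63345773 (mm9, forward strand), for which no gene name was found in the tables used here. Its level was -1.18, -0.04, -0.78 and -0.83 in D0 mice 1 to 4 and -2.90, -3.11, -3.33, -3.00 and -1.82 in D2 mice 11 to 15. All D2 mice lay below all D0 mice, with mouse 15 nearest to the controls and D0 mouse 2 highest. The forestomach RNA was dim here, with a mean log2 Cy5 signal of 7.16 in D0 and 8.07 in D2, well above background on 3 of 4 D0 arrays and 5 of 5 D2 arrays. The fitted change in the ratio was -2.12 (SE 0.295, adjusted p = 0.0191), and by slide it was -1.82, -2.36 and -1.78. Signal rose in the reference channel, where it was 3.42 higher on D2 arrays (adjusted p = 0.00165), and the Cy5 signal of the forestomach RNA was itself 0.91 higher (adjusted p = 0.647), so the direction turned when Cy5 was read alone. The other tested probe of this interval, on the reverse strand, changed by -0.13 (adjusted p = 1). The call of the chromosome 1 probe was lost without D0 mouse 2, 3 or 4 or D2 mouse 11, 12, 13 or 14 (adjusted p of 0.0502 to 0.0822), and its change was then -2.16 to -1.90. It was also lost with Agilent's processed signals (adjusted p = 0.179) and with only the D0 and D2 arrays (0.927).

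XM_918536 is a predicted transcript with no symbol in the RefSeq table. Its level was -0.08, 0.02, 0.44 and -0.10 in D0 mice 1 to 4 and -0.88, -0.60, -0.61, -0.65 and -0.91 in D2 mice 11 to 15. The groups did not overlap, and the control spread came mostly from mouse 3. The change was -0.80 (SE 0.115, adjusted p = 0.0212), with -0.66, -0.80 and -0.93 by slide. Its Cy3 signal differed by -0.29 (adjusted p = 1). The call was lost without D0 mouse 2 or 3 or D2 mouse 11, 12, 13 or 14 (adjusted p of 0.0502 to 0.105), with changes of -0.83 to -0.67. It was also lost with the deposited log2 table (adjusted p = 0.0577), with Cy5 alone (1), with median centring (1) and with Agilent's processed signals (0.828). The same held with only the D0 and D2 arrays (0.927), without slide 3 (0.314) or without all forestomach arrays rich in glandular stomach genes (0.417).

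The chromosome 7 probe lies in chr7:144563845-144603732 (mm9, reverse strand). Its level was -0.40, -0.28, 0.01 and -0.17 in D0 mice 1 to 4 and 0.46, 0.41, 0.40, 0.39 and 0.26 in D2 mice 11 to 15. D2 mice differed little among themselves and all lay above the controls. The change was 0.59 (SE 0.0927, adjusted p = 0.0444), just past the fold threshold, at 0.83, 0.48 and 0.54 by slide. Cy3 differed by 0.08 (adjusted p = 1) and Cy5 by 0.62, so here the change lay in the forestomach channel. The same strand of the region was read by 6 more tested probes, of which none was called. They changed by -0.08 to 0.56, and the highest of them, from the overlapping interval chr7:144567251-144602440, had an adjusted p of 0.0901 with all D2 mice above all D0 mice. The 4 tested probes of the opposite strand changed by -0.13 to 0.15. The call of the chromosome 7 probe was lost without D0 mouse 1, 2 or 4 or D2 mouse 11, 12, 13 or 14 (adjusted p of 0.116 to 0.277), with changes of 0.53 to 0.61. It was also lost with Cy5 alone (adjusted p = 0.105), median centring (1), Agilent's processed signals (0.797) and only the D0 and D2 arrays (0.927). The same held with all 58 arrays in 1 model (0.0667) or no filter on signal (0.0501). Without slide 3 (0.275) and without all forestomach arrays rich in glandular stomach genes (0.417) it was lost too.

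**Figure D3:**
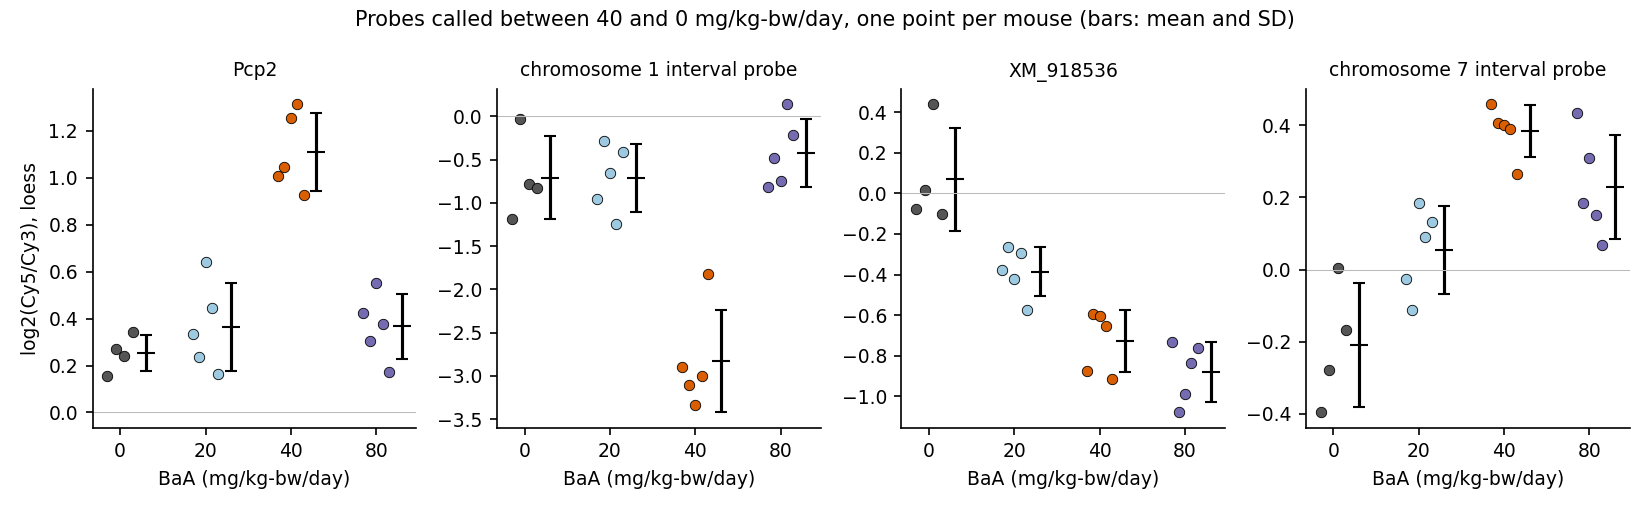
Levels of the 4 called probes, log2(Cy5/Cy3) on the y axis, in every forestomach array by BaA dose in mg/kg-bw/day, with 1 point per mouse and bars for mean and SD. Pcp2 and the chromosome 1 probe differ at 40 mg/kg-bw/day from both neighbouring doses, while XM_918536 and the chromosome 7 probe lie at 80 mg/kg-bw/day on the same side of the controls as at 40.

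The neighbouring doses were set beside these changes. The lower dose D1 and the higher dose D3, of 20 and of 80 mg/kg-bw/day, were compared with the same 4 control arrays, so their changes are not independent of the D2 change. The glandular stomach score was 0.88 to 2.44 in D1, so every D1 array was rich in these genes. It ran from -2.45 to 1.88 in D0, -2.24 to 2.37 in D2 and -2.10 to 2.12 in D3. The part of slice content in comparisons with D1 was not tested. limma called 0 probes at D1 (1427, or 4.42%, at an unadjusted p under 0.05) and 8 at D3 (0.0248%). The changes at D1, D2 and D3 were 0.11, 0.86 and 0.11 for Pcp2, -0.00, -2.12 and 0.29 for the chromosome 1 probe, -0.46, -0.80 and -0.95 for XM_918536, and 0.26, 0.59 and 0.44 for the chromosome 7 probe. XM_918536 and the chromosome 7 probe thus had 1 sign at all 3 doses, and the other two stood apart only at D2.

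Without the controls, D2 was compared directly with each neighbouring dose. Against D1, 2 probes were called (0.00619%), namely Pcp2, higher by 0.75 (SE 0.0994, adjusted p = 0.0111), and the chromosome 1 probe, lower, at -2.12 (adjusted p = 0.0111). Against D3, 4 probes were called (0.0124%). Pcp2 was again higher, by 0.74 (adjusted p = 0.00581), and the chromosome 1 probe lower, at -2.41 (adjusted p = 0.000966). The other 2, chosen after their values were seen, were Krt31 at -1.24 (adjusted p = 0.000576), a hair keratin, and XM_900959 at -0.97 (adjusted p = 0.000757). Krt31 had a level of 1.01 ± 0.20 (SD, n = 5) in D2 and 0.96 ± 0.15 (SD, n = 4) in D0, a change of 0.05, against 1.29 at D3. Leaving out probes whose Cy3 signal differed between the same groups, 0 probes remained called in either comparison of doses and 2 (XM_918536 and the chromosome 7 probe) between D2 and D0.

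The reference channel was therefore compared across all probes in the same way. In Cy3 alone 9 probes were called between D2 and D0 (0.0278%), 7 higher (0.0217%) and 2 lower, 0 between D1 and D0, and 58 between D3 and D0 (0.179%). Of the 9, Pcp2 and the chromosome 1 probe were also called in the ratio. In the other 7 the Cy5 signal moved with Cy3, so that their ratios changed by -0.40 to 0.18. Krtap19-5, a hair keratin-associated protein gene, was the one of these 7 with a symbol, with Cy3 1.79 higher and a ratio change of -0.17 (adjusted p = 1).

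**Figure D4:**
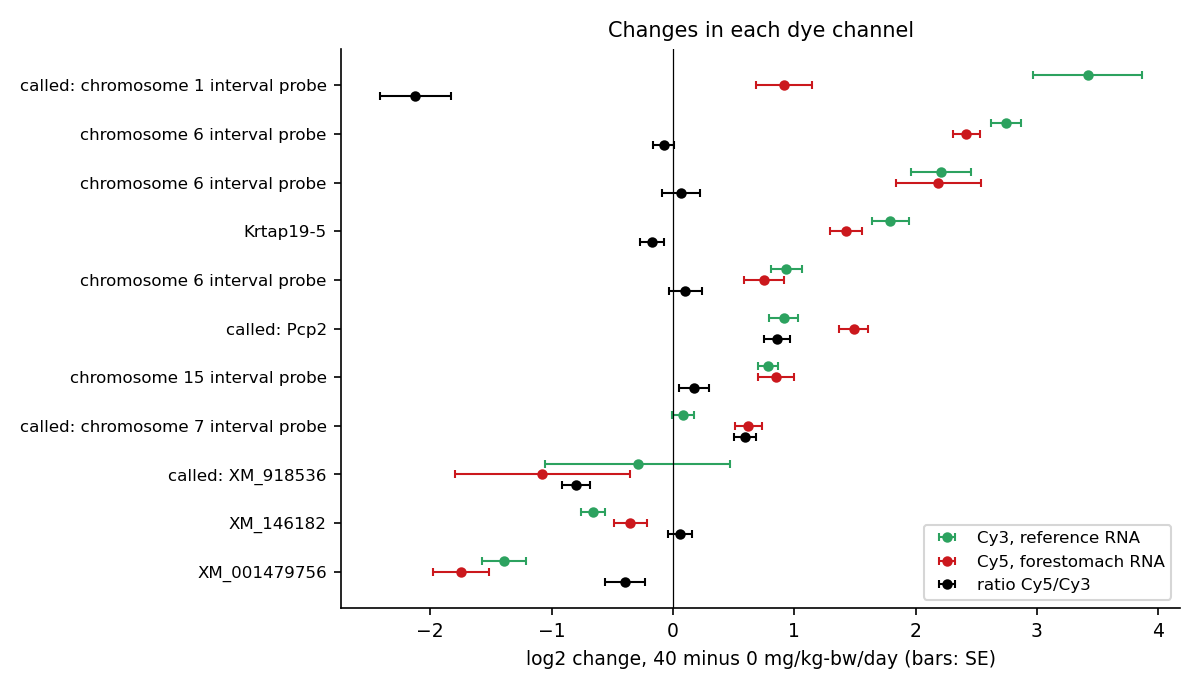
Change between 40 and 0 mg/kg-bw/day in Cy3 signal (green), Cy5 signal (red) and their ratio (black), log2 with SE bars, for the 4 probes called in the ratio and the 7 others called in Cy3 (y axis). For the chromosome 1 probe the ratio lies at -2.12 while both channels lie above 0, and for the chromosome 7 probe the Cy3 point lies at 0.08.

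AhR target genes had changes of -0.13 to 1.41 at 40 mg/kg-bw/day. Of the 8 genes of the AhR battery, 7 were tested, 5 with a change above 0 and 2 below. None of the 7 was called, and 0 reached an unadjusted p under 0.05, beside 0.0124% called and 3.29% under 0.05 over all tested probes, and nothing is read from a count of 0 in a list of this size. The median change was 0.10, beside -0.00105 over all tested probes. Cyp1a1 was the gene with the most spread. Its promoter is shown because Cyp1a1 is a well-known AhR target gene, 250 bases up to the start site from RefSeq (GRCm38.p6, chr9:57697363-57697612, plus strand). Whether AhR binds within this window was not measured. Capitals mark GCGTG, the core of the AhR response element, searched on both strands.
Cyp1a1: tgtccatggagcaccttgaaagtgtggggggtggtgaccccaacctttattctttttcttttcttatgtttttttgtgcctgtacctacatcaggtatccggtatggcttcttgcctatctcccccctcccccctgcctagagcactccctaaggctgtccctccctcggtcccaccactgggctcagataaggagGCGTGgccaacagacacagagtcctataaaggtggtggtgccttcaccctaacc
The 1 match lies 54 bases before the start. GCGTG occurs in 28.2% of 32851 such RefSeq windows, and in 4 of the 7 battery members that have a window (Cyp1a1, Cyp1b1, Ahrr and Tiparp).

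The Cyp1a1 level was 0.77, 0.07, 0.54 and 1.20 in D0 mice 1 to 4. It was 5.04, 0.40, 3.71, 0.45 and 0.66 in D2 mice 11 to 15. Mice 11 and 13 stood far above every control, and the remaining 3 D2 mice lay within the control range. The change was 1.41 (SE 1.11, 95% interval -0.93 to 3.75, adjusted p = 1), and by slide it was 1.95, 1.21 and 0.60. Mice 11 and 13 had low glandular stomach scores (-1.70 and -2.23), as mouse 12 also had (-2.24). At D1 the change was 2.64, with mice between 0.55 and 7.07, and at D3 0.45, with mice between 0.17 and 2.25. Every D1 array was rich in glandular stomach genes, as given above.

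Cyp1b1, the second hydrocarbon-oxidising P450 of the battery, had levels of -0.05, -0.24, -0.34 and 0.09 in D0 and 0.55, -0.58, -0.25, -0.56 and -0.22 in D2. Mouse 11 was again the highest of the 9, and the group change was -0.07 (SE 0.282). Cyp1a2 was well above background on 0 of 4 D0 and 1 of 5 D2 arrays and was not tested. The AhR repressor Ahrr changed by 0.10 and Tiparp, an ADP-ribosyltransferase that also limits AhR, by 0.08. Of the enzymes that act after oxidation, the quinone reductase Nqo1 changed by 0.31, the aldehyde dehydrogenase Aldh3a1 by 0.18 and the glucuronosyltransferase Ugt1a6a by -0.13, all with an adjusted p of 1. The receptor itself, Ahr, changed by 0.10, its partner Arnt by 0.17, and the chaperones Ptges3 (p23) and Hsp90ab1 by -0.03 and -0.05. Each of these had an adjusted p of 1.

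Changes of DNA damage genes lay close to 0 for most members. Of 19 tested p53 targets, 12 had a change above 0 and 7 below, 0 were called (0.0124% over all probes), and the median change was 0.05. Cdkn1a, the p53-induced inhibitor of cyclin-dependent kinases, had levels of 0.73 to 0.90 in D0 and 0.67 to 1.06 in D2, a change of 0.08 (95% interval -0.13 to 0.29). Mdm2, which degrades p53, changed by -0.13 and Ccng1 by 0.11. The largest changes were those of Pmaip1, a promoter of cell death, at 0.73 (SE 0.70), and of the stress sensor Sesn2, at -0.48 (SE 0.24), both with an adjusted p of 1. The death receptor Fas was the 1 of 19 with an unadjusted p under 0.05 (3.29% over all probes), at -0.46 (adjusted p = 1). All 15 nucleotide excision repair genes, which remove bulky hydrocarbon adducts, were tested, with a median change of -0.04, 0 called and 0 at an unadjusted p under 0.05, and Ercc5 at -0.21 and Ercc1 at -0.19 as the largest. Of 15 antioxidant targets of Nrf2, 10 had a change above 0, 0 were called, and the median was 0.12, with the glutathione reductase Gsr at 0.45 (SE 0.67).

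Genes of the epithelium itself had median changes near 0. In 23 tested genes of squamous differentiation the median change was 0.01, 14 were above 0 and 0 were called, beside 0.0124% over all tested probes. The largest were the desmosomal cadherin Dsc2 at 0.69 (SE 0.59) and involucrin, Ivl, at -0.41 (SE 0.48). The 12 basal genes had a median of -0.02, with Dst at -0.29 and the integrin Itga6 at 0.24 as the largest, Krt5 at -0.05 and Krt14 at -0.00. The 16 proliferation genes had a median of 0.06, with Mcm3 at -0.25 and Ccnb1 at 0.22 as the largest, and 0 were called.

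Heat shock genes lay mostly below 0, though none was called. They encode chaperones that fold proteins, and heat shock factor switches them on through repeats of GAA and TTC. Of 15 tested, 14 had a change below 0 (50.3% over all tested probes), with a median of -0.41 beside -0.00105 over all probes, and 9 reached an unadjusted p under 0.05, which 3.29% of all tested probes did. In 2 of the 15, Hspa8 and Dnaja1, every D2 mouse lay below every control (0.551% of all probes). Against the same controls the list's median change was -0.31 at D1 and -0.54 at D3, so the shift was not particular to D2. The mean list score was 0.35 in D0, with control mouse 3 at 0.84, and 0.02, -0.07 and -0.22 in D1, D2 and D3. All these values share the D0 arrays, and the list was written with earlier results of these data known. At D2 the list's median was -0.42 without the 3 D0 and D2 arrays rich in glandular stomach genes (control mouse 2 and D2 mice 14 and 15). It was -0.20 without control mouse 3, and -0.16 under median centring, where all probes had a median of 0.13.

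The promoters of Hspa1a and Dnaja1 are shown because these had the largest changes of the list and hold the motif, with capitals on GAANNTTC, a core of the heat shock element searched on both strands. Each runs 250 bases up to the start site (RefSeq, GRCm38.p6), Hspa1a at chr17:34972157-34972406 on the minus strand and 1 of the 3 windows of Dnaja1 at chr4:40722218-40722467 on the plus strand.
Hspa1a: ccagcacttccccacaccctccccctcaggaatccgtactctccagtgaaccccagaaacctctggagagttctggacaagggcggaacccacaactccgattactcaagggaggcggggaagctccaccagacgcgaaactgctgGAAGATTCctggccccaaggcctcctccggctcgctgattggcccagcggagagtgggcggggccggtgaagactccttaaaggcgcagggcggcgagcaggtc
Dnaja1: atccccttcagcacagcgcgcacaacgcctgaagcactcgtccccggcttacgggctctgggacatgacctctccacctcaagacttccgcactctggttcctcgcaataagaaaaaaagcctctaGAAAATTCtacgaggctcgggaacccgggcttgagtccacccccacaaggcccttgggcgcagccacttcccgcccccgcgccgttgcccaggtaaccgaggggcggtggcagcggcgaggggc
The matches lie 104 and 124 bases before the start. GAANNTTC occurs in 6.69% of all windows and in 6 of the 18 windows of the list (33.3%). These belong to 6 of the 12 list members with a window (Hspa1a, Hspa1b, Dnaja1, Hspe1, Hspd1 and Hspb1). Of these, Hspe1 changed by 0.15.

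Hspa8, the constitutive Hsp70 chaperone, had levels of 0.42, 0.51, 0.92 and 0.17 in D0 mice 1 to 4 and -0.50, -0.26, -0.27, -0.01 and -0.10 in D2 mice 11 to 15 at the probe used for the list. The groups did not overlap. Its change was -0.73 (SE 0.145, adjusted p = 0.251), with -0.80, -0.68 and -0.61 by slide, and its other probes gave -0.71 and -0.68.

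Dnaja1, an Hsp40 co-chaperone of Hsp70, had levels of -0.06, 0.25, 0.78 and -0.39 in D0 mice 1 to 4 and -1.14, -0.81, -1.12, -0.46 and -0.67 in D2 mice 11 to 15. D0 mouse 4 came close to the highest D2 mouse. The change was -0.99 (SE 0.264, adjusted p = 1), and a second probe gave -0.35. Hspa1a, the stress-induced Hsp70, had levels of 4.71, 2.90, 5.24 and 4.39 in D0 and 3.55, 3.98, 3.57, 2.31 and 2.19 in D2. Its lowest values were those of D0 mouse 2 and D2 mice 14 and 15, the arrays rich in glandular stomach genes, and its change was -1.19 (SE 0.514, adjusted p = 1). Hspa1a has a near-identical neighbour, Hspa1b, and a probe may read both. Hsph1, an Hsp110 chaperone, changed by -0.85, Hsp90aa1 by -0.47 and Chordc1, a partner of Hsp90, by -0.41.

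**Figure D5:**
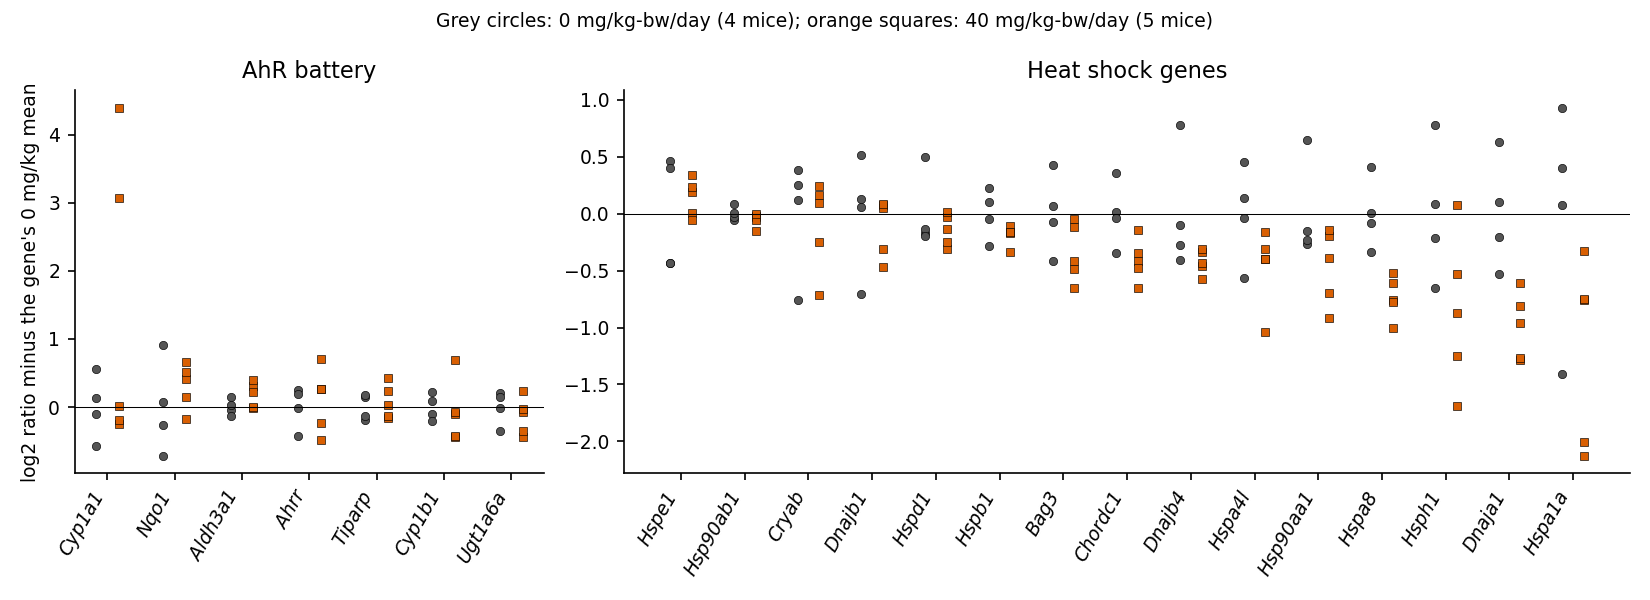
Levels of the tested AhR battery genes (left) and heat shock genes (right), as the log2 ratio minus the gene's mean in D0 (y axis), with 1 point per mouse for D0 (grey circles) and D2 (orange squares). Cyp1a1 has 2 D2 mice far above the rest, and Hspa8 and Dnaja1 are the heat shock genes whose groups do not overlap.

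Apart from Pcp2, the single genes with the smallest p at a fold change of 1.5 or more were not called. Srsf5, a serine and arginine rich splicing factor, had levels of -0.98, -1.31, -0.99 and -0.80 in D0 mice 1 to 4 and 0.10, -0.20, -0.24, -0.20 and -0.45 in D2 mice 11 to 15. All D2 mice lay above all controls, with a change of 0.82 (SE 0.144, adjusted p = 0.112) that was 0.93, 0.68 and 0.86 by slide and 0.42 and 0.97 at D1 and D3. Of the 9 tested genes of its family the median change was 0.12, and Srsf10 changed by -0.19 (unadjusted p = 0.019). Other increases were 9430038I01Rik at 0.61 (adjusted p = 0.179) and Jakmip1, which binds Janus kinases and microtubules, at 0.69 (adjusted p = 0.251). S100a9, a calprotectin subunit of granulocytes and stressed epithelium, stood at 0.70, Ppip5k2, an inositol pyrophosphate kinase, at 0.65, and the lipase gene Lipo3 at 0.59, each with an adjusted p of 1. Another tested probe of Ppip5k2 changed by 0.23. Kif5b, a kinesin heavy chain, had a change of 0.97 (adjusted p = 1) that came from mice 11, 12 and 14 at 1.22, 1.23 and 1.23, while mice 13 and 15 lay at -0.38 and -0.04 beside controls of -0.45 to -0.20.

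Among decreases the largest was Rnu3b1, a U3 small nucleolar RNA of ribosome assembly, at -2.70 (SE 0.929, adjusted p = 1). Its levels were 2.51, 3.04, 2.23 and 2.47 in D0 and -0.41, -1.99, -1.94, 3.21 and 0.44 in D2. Mouse 14 lay above every control and the other 4 D2 mice below all of them. Nfil3, a leucine zipper repressor with a role in the circadian clock, changed by -0.72 (adjusted p = 1) and did not overlap between groups. Zbtb16, a zinc finger transcription factor, stood at -0.89, Fam124b at -0.66 and Vipr2, a receptor of vasoactive intestinal peptide, at -0.60, and each of them overlapped.

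Lung and liver were set beside forestomach at the same dose, with 5 D2 and 5 D0 arrays in each, control mouse 5 included, against 5 and 4 in forestomach. Among the 28434 probes tested in forestomach and lung, 136 were called in lung (0.478%), and among the 22074 tested in forestomach and liver, 190 in liver (0.861%). An interaction term in 1 model of all 58 arrays compared the D2 change of each probe between tissues. Against lung 27 probes differed (0.095%), 1 with a higher change in forestomach, Pcp2 (0.00352%), and 26 with a lower one (0.0914%). The 26 had a median change of -0.156 in forestomach and 0.791 in lung and 19 of them were called in lung. In 25 of the 26 the change was smaller in size in forestomach than in lung. The 27 became 1 with median centring and 3 without mouse 14, and was 7 to 15 without mouse 1, 2, 4 or 15. Against liver 51 differed (0.231%), 48 with a higher change in forestomach (0.217%), with medians of 0.0678 there and -1.08 in liver. The 3 with a lower one (0.0136%), chosen after their values were seen, were Tbx3 (-0.23 in forestomach, 0.94 in liver), Trib1 (-0.30 and 0.29) and a noncoding interval probe on chromosome 17 (-0.23 and 0.36). The 51 became 3 with median centring, 12 to 18 without mouse 1, 3, 4 or 14, and 26 to 32 without mouse 2, 11 or 13.

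Among the named genes, Pcp2 changed by 0.86 in forestomach, 0.01 in lung and 0.00 in liver, and differed from both (adjusted p = 0.00508 and 0.00157). Its mean log2 Cy3 signal was 7.06 in D0 and 7.97 in D2 in forestomach, 6.90 and 6.80 in lung, and 6.61 and 7.13 in liver. The part of the reference signal in this difference was not tested. The chromosome 1 probe changed by -2.12 in forestomach, -0.06 in lung and -0.99 in liver (adjusted p = 0.0425), and its change differed from that in lung (adjusted p = 0.0139) but not past the threshold from that in liver (adjusted p = 0.354). Its mean log2 Cy3 signal was 7.79 in D0 and 11.2 in D2 in forestomach, 6.88 and 6.82 in lung, and 6.88 and 8.43 in liver, where D2 arrays ranged from 6.46 to 11.1. With Cy5 alone the forestomach change was 0.91, of opposite sign, and the part of the reference signal in the difference between tissues was not tested. XM_918536 fell in lung too, by 0.84 (adjusted p = 5.9e-05), and had a change of -0.08 in liver. Its mean log2 Cy3 signal was 12.06 in D0 and 11.77 in D2 in forestomach, 10.66 and 11.47 in lung, and 10.31 and 9.295 in liver. Single lung arrays ranged from 9.538 to 11.83 in D0 and from 10.36 to 12.3 in D2. The part of the reference signal in these changes was not tested. Srsf5 rose in lung by 1.25 (adjusted p = 1.5e-06) and changed by -0.30 in liver, and its change in forestomach differed from liver (adjusted p = 0.0101) but not past the threshold from lung (-0.43, adjusted p = 0.89). Heat shock genes not called in forestomach fell in lung, with Hspa8 at -0.87 (adjusted p = 0.00019), Dnaja1 at -1.49 (adjusted p = 1.4e-05) and Hspa1a at -2.63 (adjusted p = 2e-05). Their changes in forestomach and lung did not differ past the threshold, at 0.14, 0.51 and 1.44 with adjusted p-values of 1, 0.96 and 0.59.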

How the data were processed

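The authors deposited one scanner file per array. Per the file headers these were made with Feature Extraction 10.7.3.1 and hold spot intensities on a linear scale. The median signals of both channels were used without background correction. The authors also deposited a table of LOWESS-normalised log2 ratios, used as an alternative, with which the ratios here correlated at r of 0.996 to 0.998 per array. Each array was normalised by loess, outlier spots were left out, and spots of a probe were averaged. Of 55681 probes, 26413 matched a symbol among RefSeq genes (GRCm38.p6). Interval names follow the scanner grid (mm9). Probes entered the test where at least 4 forestomach arrays had them well above background in Cy5.

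limma 3.58.1, in R 4.3.3 with files read by data.table (version 1.17.8), fitted the 4 dose groups of all 19 forestomach arrays in 1 model. Its moderated test was two-sided, with Benjamini-Hochberg adjustment over all tested probes, and unadjusted p-values come from the same fits. The study used MAANOVA, which was not installed. Each array of a group is a separate mouse by its label, so p-values measure the spread between mice, slices and arrays together. The normexp alternative used median signals, since the files hold no mean signal. Dyes were not swapped, so the ratio of a probe keeps any bias of its dyes. Scripts were tested on simulated data, and figures were drawn with matplotlib 3.10.9 in Python 3.11.15.

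Members and lists were chosen with earlier results of these data known. Genes named were all called probes, the 8 increases and 8 decreases with the smallest p at 1.5-fold or more and an unadjusted p of at most 0.05, the AhR genes (1 is not reported here), Cdkn1a, Mdm2, Ccng1, Krt31, Srsf5, Hspa8 and Pcp2, and the 2 members of each other list with the largest change. Some further list members, such as Fas, and the probes called only between doses, tissues or in Cy3, were chosen after their values were seen. Each gene of a list was represented by its tested probe with the highest mean Cy5 signal. The number of arrays limits the precision of every value.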

Additional observations from a re-analysis of the deposited data

Results flagged for a closer look

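Of 216 groups of values examined, 22 held a sample far from the others of its group. Chance gives about 1 group in 20 where groups are independent and unselected. The groups here came from the same 9 mice and partly from genes picked for large changes, so no excess is read from the count. Of the 22, 17 were values of control mouse 2, 4 of D2 mouse 15 and 1 of D2 mouse 11. Control mouse 2 was the only D0 array on slide 3 and the only D0 array rich in glandular stomach genes, and these cannot be told apart here.

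Control mouse 2 stood above the other controls for Gkn2, a gastrokine of the glandular stomach, at 7.64, for Fabp1 of the intestine at 2.68, and for Cela1 of the pancreas at 0.809. It was also the highest control for S100a8 (-1.23), Pmaip1 (-0.874), Gsr (0.95), Itga6 (0.498) and Cd28 (-1.58). It was the lowest control for Cfd, an adipocyte gene, at 0.367, and for Postn (2.83), Lmod1 (0.536) and Hbb-b2 (2.14). Its list scores lay apart for glandular stomach (1.88), intestine (0.551), pancreas (0.49), inflammation and chemokines (0.434) and, as the lowest control, for basal squamous epithelium (-0.348).

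D2 mouse 15, also on slide 3, was the highest of its group for the chromosome 1 probe (-1.82) and for Ifit1 (-1.07), and the lowest for Krt31 (0.676). Its score of interferon-stimulated genes, 0.249, lay above those of the other D2 mice. Within D2, the score of B cell genes was highest in mouse 11, at 0.198.

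The D2 change differed between tissues in an interaction test for 4 named results. For Pcp2 the change in forestomach exceeded that in lung by 0.845 (adjusted p = 0.00508) and that in liver by 0.853 (adjusted p = 0.00157). For the chromosome 1 probe the difference from lung was -2.06 (adjusted p = 0.0139). The Cy3 means given above for both probes were not the same in the 3 tissues, and their part was not tested. For Srsf5 the difference from liver was 1.12 (adjusted p = 0.0101).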

How the results depend on the processing

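Between D2 and D0 the 4 calls became 1 with median centring, 0 with Agilent's processed signals, 0 with only the D0 and D2 arrays in the model, 10 with all 58 arrays in 1 model, and 1 to 6 without any 1 mouse. It was 1 without D0 mouse 2 or D2 mouse 11, 12, 13 or 14, 2 without D0 mouse 3 or 4, and 6 without D2 mouse 15. With alternatives chosen after seeing the data, 1 probe was called without all forestomach arrays rich in glandular stomach genes, 2 without slide 3 and 2 without probes whose Cy3 signal differed. The first of these fits also lost every D1 array and some D3 arrays, so fewer arrays set its spread. Against D1, the 2 calls became 1 with median centring, 0 without probes whose Cy3 signal differed, and 0 to 2 without any 1 mouse (0 without D2 mouse 12, 13 or 14 or D1 mouse 7 or 10, and 1 without D1 mouse 6). Against D3, the 4 calls became 1, 0 and 4 to 6 in the same order. The tissue differences moved from 27 probes against lung to 1 with median centring, 52 with the slide as a block and 3 to 30 without any 1 mouse, and from 51 against liver to 3, 93 and 12 to 54. Only D0 and D2 mice with a forestomach array were left out in turn here, so control mouse 5 was always kept. The count against lung was lowest without mouse 14 (3) and was 7 to 15 without mouse 1, 2, 4 or 15. That against liver was lowest without mouse 3 (12), 14 without mouse 14, 15 without mouse 4, 18 without mouse 1, and 26 to 32 without mouse 2, 11 or 13. Normexp, the deposited table, the slide as a block, array weights and the glandular stomach score as a covariate gave 3 to 6 calls between D2 and D0, the deposited table without XM_918536. The chromosome 1 probe reversed, to 0.91, when Cy5 was read alone, and the causes of the other moves were not tested.

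Mouse numbers pair tissues of the same animal, so the tissue differences were refitted with a replicate block for the mouse. The block gave 33 probes against lung and 61 against liver, with 27 and 51 of them shared with the fit without it. No paired analysis was possible for D2 against D0 because the groups share no mouse number. Deviations of the same mouse correlated by -0.11 to 0.19 between forestomach and lung and by -0.065 to 0.11 between forestomach and liver.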

Other observations

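Genes of the circadian clock lay on opposite sides of 0, though 0 were called, beside 0.0124% over all tested probes. Of 10 clock output genes 9 had a change above 0, with a median of 0.27 beside -0.00105 over all tested probes. The list's median was 0.11 without control mouse 3 and 0.18 without D2 mouse 12. Dbp, a bZIP activator, had levels of -0.14, -0.31, -1.75 and 0.59 in D0 mice 1 to 4 and 0.21, 1.43, 0.23, -0.20 and 1.05 in D2 mice 11 to 15, a change of 0.95 (SE 0.493, limma adjusted p = 1), and the groups overlapped. Nr1d2, a repressor of the clock, changed by 0.42 (adjusted p = 1). All 5 genes of opposite phase had a change below 0, with a median of -0.30, and Nfil3 changed most, as given above, while Arntl, the partner of Clock, changed by -0.44 (adjusted p = 1). At D1 and D3, against the same controls, the medians were 0.13 and 0.58 for clock output and -0.18 and -0.30 for the opposite phase. The labels used here give no time of day for the tissue collection.

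Of the 14 tested interferon-stimulated genes 12 had a change below 0, with a median of -0.30, and 0 were called (0.0124% over all tested probes). Nothing is read from a count of 0 called members in this list or those that follow. The median was -0.15 without control mouse 2, -0.16 without control mouse 4 and -0.13 under median centring, where all tested probes had a median of 0.13. Xaf1 at -0.50 and Ifit1 at -0.45 had the largest changes. Control scores ran from -0.53 to 0.38 and those of D2 from -0.34 to 0.25, so the groups overlapped. All 9 tested fat genes had a change below 0 (median -0.62), with Adipoq, a hormone of adipocytes, at -1.84 (SE 1.3, adjusted p = 1), and all 18 tested glandular stomach genes a change above 0 (median 0.86), with Gkn2 at 2.56 (SE 1.48, adjusted p = 1) and Tff1 at 1.49 (SE 0.601, adjusted p = 1). Without control mouse 2 and D2 mice 14 and 15 the glandular stomach median was 0.06 and the fat median -1.22. These arrays were picked by their glandular stomach score, so the first of these medians follows from the choice. Of 11 collagen and matrix genes all had a change below 0 (median -0.13), with Postn at -0.47 and Col1a2 at -0.33, and of 10 smooth muscle genes 1 had a change above 0 (median -0.14), with Lmod1 at -0.36 and Acta2 at -0.29. The sizes of both medians, and the sign for smooth muscle, depended on the arrays and processing used. Both medians were 0.11 under median centring, where all tested probes had a median of 0.13, and -0.36 without control mouse 2. The smooth muscle median was 0.04 without control mouse 1 and 0.03 with the glandular stomach score as a covariate. The medians of the other lists were 0.02 for inflammation and chemokines, -0.02 for the retinoid pathway, -0.17 for B cells, 0.03 for T cells, 0.03 for macrophages and granulocytes, 0.88 for intestine, 0.15 for pancreas, -0.21 for skeletal muscle, 0.19 for red blood cells and 0.07 for nerve, with 0 members called. In these lists the largest changes were S100a8 at 0.82 (inflammation), Aldh1a3 at 0.71 and Rara at 0.37 (retinoid), Cd22 at -0.32 and Cd79b at -0.28 (B cells), and Cd3e at -0.14 and Cd28 at 0.09 (T cells). They were Cx3cr1 at 0.50 and Cd14 at 0.30 for macrophages and granulocytes, Fabp1 at 1.16 and Lgals2 at 1.00 for intestine, and Cela1 at 0.65 and Cel at -0.29 for pancreas. Skeletal muscle had Tnnt3 at 1.00 and Myh2 at -0.77, red blood cells Hbb-b2 at 0.33 and Hba-a1 at 0.29, and nerve Uchl1 and Vip at 0.23 each. The other fat gene with a large change, Cfd, stood at -1.80 (SE 1.89, adjusted p = 1).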
